A study of Mus musculus with 6 samples.

Results

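The 10 genes described here encode the 4 Janus kinases (Jak1, Jak2, Jak3 and Tyk2), the transcription factors Stat5a, Stat5b and Stat6, and the feedback inhibitors Socs1, Socs2 and Cish. They were taken by gene symbol from 41079 genes listed in the count and FPKM tables, and all 10 had enough counts to be tested. RNA was sequenced in 6 libraries of microglia from the brains of C57Bl/6N mice aged 1 to 3 days, 3 libraries for each of 2 culture conditions. The study used neonates of both sexes. In both conditions the cells had been grown in flasks with L-929 conditioned medium, a source of macrophage colony-stimulating factor, and detached by shaking. Control cultures were kept in serum-free DMEM/F12. Optimized cultures received human TGF-β1, IL-34 and CX3CL1 at 100 ng/mL each. The study also names cholesterol, insulin-transferrin-selenium and a collagen IV coating, which the sample labels leave out. The factors were given together, so the share of any single one in a difference cannot be told apart.

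Receptors for interleukins, interferons and colony-stimulating factors have no kinase of their own and carry Janus kinases on their cytoplasmic tails. Ligand binding activates the kinases, which phosphorylate the receptor and a STAT protein, and the STAT enters the nucleus as a dimer. STAT5 follows ligands such as GM-CSF, IL-2 and growth hormone, STAT6 follows IL-4 and IL-13, and both induce SOCS genes, whose products block the kinases or the receptor and are read as a record of recent signalling. In microglia, IL-4 acting through STAT6 and GM-CSF acting through STAT5 are textbook inputs, whereas IL-34 binds the receptor tyrosine kinase Csf1r, TGF-β1 acts mainly through SMAD proteins, and CX3CL1 binds a G protein-coupled receptor.

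The DNA letters that STAT dimers bind are a palindrome of TTC and GAA, with a spacer of 3 bases preferred by STAT5 (TTCNNNGAA) and a spacer of 4 bases preferred by STAT6 (TTCNNNNGAA). Both patterns were searched on both strands within 1000 bases on either side of the start of the canonical transcript of each gene (GENCODE M39 on GRCm39). Neither pattern contains the other at the same position, and since each is its own reverse complement, 1 search covers both strands. At least 1 match of TTCNNNGAA stood in 45.2% of 21770 protein-coding windows and at least 1 match of TTCNNNNGAA in 40%, so single matches near Jak1, Jak2, Jak3, Tyk2, Stat5a and Stat6 are ordinary. Stat5b had 0 of either. Cish had 5 matches of TTCNNNGAA, a number reached in 0.0827% of windows, and Socs2 had 3, a number reached in 2.81%. Socs1 had 3 matches of TTCNNNNGAA, reached in 1.72%. The clustered matches of the feedback genes are shown because these genes are the usual record of STAT activity, and capitals mark the matches. The Socs2 pair lies at chr10:95252766-95252785 on the minus strand, the Cish pairs lie at chr9:107173858-107173877 and chr9:107173963-107173988 on the plus strand, and all 3 stretches fall inside an exon of the canonical transcript.
Socs2 pair: TTCCTGGAAagTTCCTGGAA
Cish, first pair: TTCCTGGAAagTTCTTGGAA
Cish, second pair: TTCTAGGAAgatgaggcTTCCGGGAA
The pair with 2 bases between the matches, found near both Socs2 and Cish, was present in 9 of the 21770 windows (0.0413%). This spacing was searched after the matches of Socs2 had been seen. Upstream of Socs1, the 3 matches of TTCNNNNGAA begin 172, 120 and 88 bases before the transcript start, within the 250 bases at chr16:10603876-10604125 on the minus strand.
Socs1, 250 bases before the start: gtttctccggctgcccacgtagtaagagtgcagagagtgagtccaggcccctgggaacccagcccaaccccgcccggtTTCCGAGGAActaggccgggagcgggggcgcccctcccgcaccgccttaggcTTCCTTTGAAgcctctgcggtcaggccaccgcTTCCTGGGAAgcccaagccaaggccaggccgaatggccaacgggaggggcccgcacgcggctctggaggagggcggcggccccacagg
A match describes the letters in a window and not a bound site, and where the windows lie depends on the annotated start.

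The count totals of the 6 libraries ranged from 20628148 to 27261839. Optimized library 1 stood apart over all genes, with a chi-square per gene, which counting noise alone would put near 1, of 78.5 and 45.9 against optimized libraries 2 and 3, while these differed by 14.4 and the control libraries by 10.6 to 25.8. The summed CPM of 10 microglial markers was 8775 to 9447 in control and 13070 to 16570 in optimized libraries, with 5 of the 10 higher and 3 lower. Among 6 markers each of other cell types, the sums were 4.91 to 5.90 CPM and 5.83 to 7.11 CPM for neurons, 196 to 217 CPM and 203 to 244 CPM for oligodendrocytes, and 0.0437 to 0.122 CPM and 0.0851 to 0.284 CPM for lymphocytes, control before optimized. Of the oligodendrocyte markers, Mbp was higher and Cnp lower, with log2 fold changes of 0.34 and -0.56 (edgeR, adjusted p = 0.0233 and 0.000758). The other 4 did not pass the threshold. The astrocyte sum was 33.4 to 36.2 CPM against 22.1 to 25.7 CPM, with Aldh1l1 alone past the threshold. Aldh1l1 had means of 16.5 CPM in control and 4.64 CPM in optimized libraries. The other astrocyte markers went both ways, with log2 fold changes of 0.16 for Gfap, 0.49 for Gja1, -0.20 for Aqp4, -0.59 for Slc1a2 and -0.51 for Slc1a3. The fibroblast sum was 34.5 to 48.8 CPM against 31.0 to 151 CPM, highest in optimized library 3. The endothelial sum of 81.5 to 97.1 CPM against 274 to 352 CPM was mostly Flt1. Kdr had means of 2.59 and 3.10 CPM, Cdh5 of 1.48 and 1.75 CPM and Pecam1 of 0.476 and 0.601 CPM, control before optimized. These genes did not pass the threshold. Cldn5 and Tek were at 0 in most libraries and were not tested. The part of these cell types in the results below was not tested. Since the samples are bulk RNA, fewer cells of a type and less RNA per cell cannot be told apart.

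Of the 10 genes, 1 was higher and 3 were lower under the optimized conditions by the quasi-likelihood test of edgeR, with p-values adjusted over all genes and a threshold of 0.05. Socs2 was the gene that rose, Tyk2, Stat6 and Jak1 fell, and the other 6 did not pass the threshold. Of the 14618 genes tested, 29.8% passed it, 14.7% as higher and 15.2% as lower, so the count of 4 among 10 genes is not far from what the whole table shows. The median log2 fold change was -0.21 over the 10 genes and 0.0079 over all genes tested. A stricter cut-off, an unadjusted p-value under 0.01 and a change of 1.5 or more up or down on the log2 scale, was passed by Socs2 alone among the 10 genes. That cut-off was passed by 3.1% of all tested genes as higher and by 2.53% as lower.

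**Figure D1:**
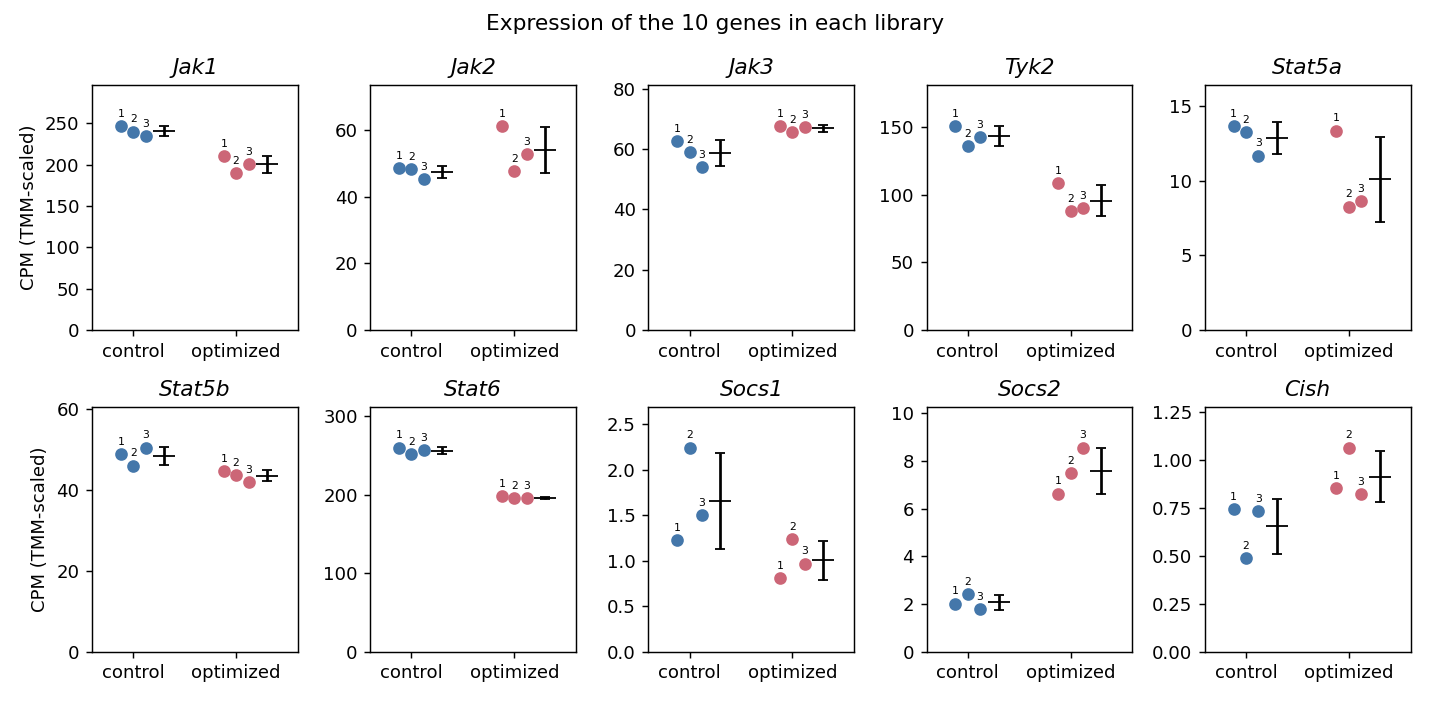
Expression of each gene in CPM after TMM scaling, with 1 panel per gene and its own axis from 0, 1 point per library marked with its replicate number, and the mean ± SD of 3 libraries beside the points. The 3 optimized libraries sit above all control libraries for Socs2 (6.63 to 8.56 CPM against 1.79 to 2.41 CPM) and below them for Tyk2, Stat6 and Jak1.

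Among the kinases, Tyk2, which serves the receptors of type I interferon, IL-12 and IL-10, changed most. The gene lies at chr9:21015363-21042689. Its expression was 151, 136 and 143 CPM in control libraries 1 to 3 and 109, 88.2 and 90.2 CPM in optimized libraries 1 to 3. All optimized libraries lay below all control libraries, with means of 143 ± 7.56 CPM (SD, n = 3) and 95.7 ± 11.3 CPM (SD, n = 3). The difference was -0.58 ± 0.10 (SE) on the log2 scale (edgeR, adjusted p = 0.00155). When each library was left out in turn, the change stayed between -0.54 and -0.68.

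Jak1, the kinase shared by interferon receptors, the common gamma chain receptors and the gp130 receptors, lies at chr4:101008838-101122487. It was at 247, 240 and 235 CPM in control and at 211, 189 and 201 CPM in optimized libraries. The groups did not overlap, but the distance was small, with means of 241 ± 6.10 CPM and 200 ± 10.7 CPM (SD, n = 3 each) or -0.26 ± 0.08 (SE) on the log2 scale (edgeR, adjusted p = 0.0329). The call did not outlast the removal of a library in 5 of 6 cases. The adjusted p-value by edgeR was 0.114, 0.0986 and 0.082 without control library 1, 2 or 3, and 0.0809 and 0.11 without optimized library 2 or 3, while the change itself ranged from -0.23 to -0.30 over the 6 removals.

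Jak2, the kinase of the GM-CSF, growth hormone and erythropoietin receptors, lies at chr19:29228677-29290505. It was at 48.4, 48.3 and 45.3 CPM in control and at 61.2, 47.7 and 52.7 CPM in optimized libraries, and optimized library 2 fell within the control range. The log2 fold change was 0.19 with a 95% interval from -0.05 to 0.42 (edgeR, adjusted p = 0.22). Jak3, which pairs with the common gamma chain, lies at chr8:72123007-72143225 and was at 62.6, 58.9 and 54.1 CPM in control and 67.7, 65.6 and 67.3 CPM in optimized libraries. The optimized libraries of Jak3 lay above the control libraries without overlap, by a log2 fold change of 0.19 (95% interval 0.0010 to 0.38), which did not pass the threshold (edgeR, adjusted p = 0.125). Without TMM factors, with each library scaled by its total alone, the median of all genes shifted by -0.13 on the log2 scale, and the values of Jak2 and Jak3 became 0.06 and 0.06. Jak3 shares 1047 exonic bases with B3gnt3 on the opposite strand and 629 bases with Insl3 on its own strand. These neighbours had mean counts of 291 and 158 against 1453 for Jak3, and how shared reads were counted is not given in the sources used here.

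**Figure D2:**
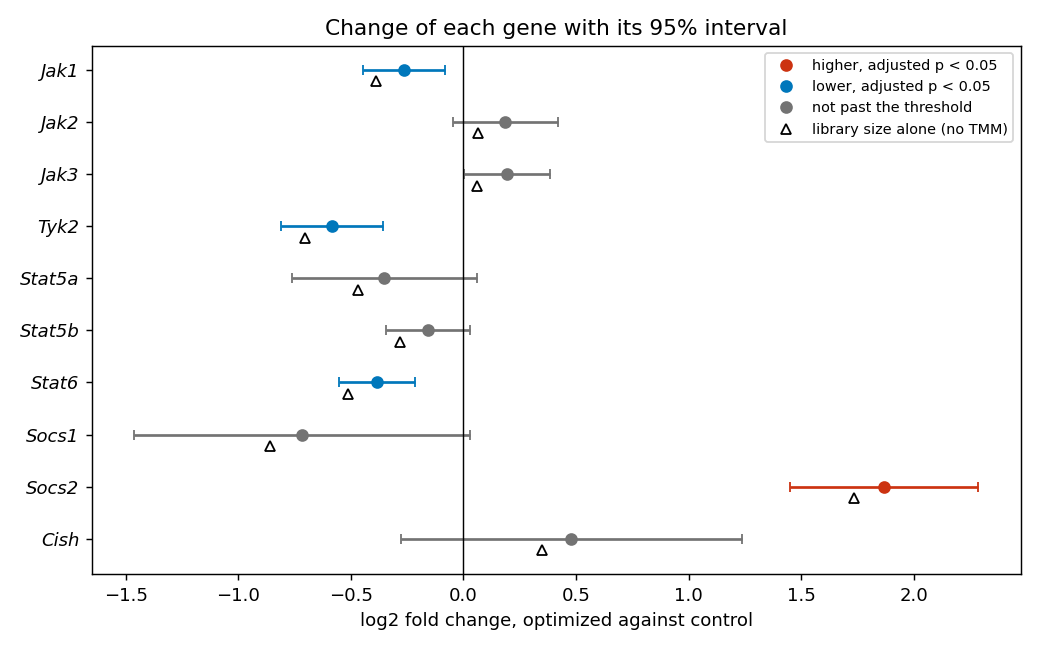
Log2 fold change of each gene, optimized against control, with its 95% interval by edgeR. Points are red for higher, blue for lower and grey for genes not past the threshold, and open triangles show the change with library size alone, which moves every gene to the left and reverses none of the 10.

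Of the STAT genes, Stat6, the factor that carries IL-4 and IL-13 signals, fell. Stat6 lies at chr10:127477821-127496862 and was at 260, 251 and 256 CPM in control and at 198, 195 and 195 CPM in optimized libraries. The optimized libraries were almost identical to each other and all lay below the control libraries, with means of 256 ± 4.43 CPM and 196 ± 1.42 CPM (SD, n = 3 each). On the log2 scale it changed by -0.38 ± 0.08 (SE, edgeR, adjusted p = 0.00343), and removal of single libraries left it between -0.38 and -0.40. Nab2, on the opposite strand, shares 77 exonic bases with Stat6 and had a mean count of 1809 against 5315.

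Stat5a and Stat5b are neighbouring genes on chromosome 11 whose products carry most of the signal of GM-CSF, IL-3 and growth hormone. Stat5b, at chr11:100671556-100741589, was at 48.8, 46.0 and 50.5 CPM in control and at 44.7, 43.7 and 42.0 CPM in optimized libraries. These groups did not overlap, yet the log2 fold change of -0.16 (95% interval -0.34 to 0.03) did not pass the threshold (edgeR, adjusted p = 0.199). By limma on log2(FPKM + 1) over the genes that averaged 1 FPKM or more it did, at -0.25 with an adjusted p-value of 0.0389.

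Stat5a, at chr11:100750177-100776065, was at 13.7, 13.3 and 11.7 CPM in control and at 13.4, 8.26 and 8.66 CPM in optimized libraries. Optimized library 1 stood within the control range and the other 2 optimized libraries stood below it. Over all libraries the log2 fold change was -0.35 (95% interval -0.76 to 0.06, edgeR, adjusted p = 0.188), whereas without optimized library 1 it was -0.60 with an adjusted p-value of 0.00202. That single library, which stood apart over all genes, decided whether Stat5a was called. The 3′ end of Stat5a shares 142 exonic bases with Stat3, which runs on the opposite strand and had a mean count of 3718 against 269 for Stat5a. The strand setting of the counting is not given in the sources used here, so reads on the shared bases cannot be assigned.

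Among the inhibitors, Socs2 had the largest log2 fold change of the 10 genes. Socs2, known for limiting growth hormone receptor signalling and a classical STAT5 target, lies at chr10:95219523-95253929. It had 46, 59 and 49 counts in control and 140, 176 and 177 counts in optimized libraries, equal to 2.01, 2.41 and 1.79 CPM and to 6.63, 7.49 and 8.56 CPM. The lowest optimized library was well above the highest control library, with means of 2.07 ± 0.31 CPM and 7.56 ± 0.97 CPM (SD, n = 3 each). Socs2 was 3.65-fold higher in optimized cultures (95% interval 2.73 to 4.88), or 1.87 ± 0.19 (SE) on the log2 scale (edgeR, adjusted p = 4.54e-05). Removal of single libraries left the change between 1.77 and 1.99. On FPKM values, which were 0.161 ± 0.029 and 0.533 ± 0.069 (SD, n = 3 each), the pseudocount compressed the difference to 0.40 on the log2(FPKM + 1) scale and to 1.28 on the log2(FPKM + 0.1) scale, both still past the threshold by limma (adjusted p-values 0.00324 and 0.00943).

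Cish, the founding member of the SOCS family and like Socs2 a STAT5 target, lies at chr9:107173225-107179983. It had 17, 12 and 20 counts in control and 18, 25 and 17 counts in optimized libraries, equal to 0.743, 0.489 and 0.732 CPM and to 0.852, 1.06 and 0.822 CPM. Optimized libraries lay just above control libraries on the CPM scale, but the log2 fold change of 0.48 had a 95% interval from -0.28 to 1.24 and an adjusted p-value of 0.335 (edgeR). At this depth a change of the size of that in Socs2 lay outside the interval, and smaller changes in either direction lay within it. The difference between the responses of Socs2 and Cish was not tested.

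Socs1, which binds the kinase domain of Janus kinases and restrains interferon and IL-4 signalling, lies at chr16:10600104-10603875. It had 28, 55 and 41 counts in control and 17, 29 and 20 counts in optimized libraries, equal to means of 1.66 ± 0.53 CPM and 1.00 ± 0.22 CPM (SD, n = 3 each). The groups touched, since optimized library 2 stood just above control library 1 (1.24 against 1.22 CPM). The log2 fold change was -0.72 (95% interval -1.46 to 0.03, edgeR, adjusted p = 0.141) and was -0.44 without control library 2, the highest. Socs1 and Socs2 thus had estimates of opposite sign, of which that of Socs2 passed the test.

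Compared per length, in FPKM, Stat6 was the most expressed of the 10 genes in both conditions, at 68.3 ± 2.61 and 47.6 ± 2.26 FPKM (SD, n = 3 each), followed by Jak1 at 40.5 ± 2.35 and 30.7 ± 2.88 FPKM. Tyk2 came next in control libraries at 27.7 ± 1.79 FPKM, above Jak3 at 14.6 ± 1.54 FPKM without overlap. In optimized libraries Tyk2 at 16.8 ± 2.57 FPKM and Jak3 at 15.1 ± 0.88 FPKM overlapped. Below them stood Stat5b at 6.18 ± 0.17 and 5.04 ± 0.28 FPKM, Jak2 at 4.40 ± 0.32 and 4.56 ± 0.75 FPKM, which overlapped Stat5b in the optimized libraries, and Stat5a at 2.97 ± 0.34 and 2.12 ± 0.67 FPKM. Socs1 had 1.26 ± 0.42 and 0.686 ± 0.12 FPKM and Cish had 0.155 ± 0.032 and 0.196 ± 0.020 FPKM. Socs2 overlapped Cish in control libraries and Socs1 in optimized libraries. With CPM per kb of canonical transcript, Stat5b (9.50 ± 0.44), Jak3 (9.33 ± 0.68) and Jak2 (8.61 ± 0.33, SD, n = 3 each) stood close together in control libraries, Jak3 overlapping both others, so their order depended on the gene length.

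The summed level of the kinases was 87.2 ± 5.68 FPKM in control and 67.2 ± 6.92 FPKM in optimized libraries (SD, n = 3 each). FPKM levels and sums were used as deposited, without the TMM factors. On log2(FPKM + 0.1) the changes of all genes lay at a median of -0.14 from the main fit. In TMM-scaled CPM the kinase sum was 477 to 509 in control and 391 to 448 in optimized libraries. The sums and shares are given as a description, with no test. Jak1 kept a share of 46.5% ± 0.66 in control and 45.7% ± 0.74 in optimized libraries. Tyk2 went from 31.8% ± 1.02 to a range of 23.9% to 26.6% of the kinase sum, while Jak3 went from 16.7% ± 0.72 to 22.6% ± 1.11 and Jak2 from 5.05% ± 0.16 to 6.76% ± 0.42. The shares of Tyk2, Jak3 and Jak2 did not overlap between the conditions, and a share moves whenever another member of the sum does. The distance between Jak3 and Jak2 depended on the gene length, since with CPM per kb of canonical transcript Jak3 held 10.4% ± 0.47 and 14.2% ± 0.81 and Jak2 held 9.60% ± 0.30 and 13.0% ± 0.70 in control and optimized libraries. Among the STAT genes, the sum was 77.4 ± 3.01 FPKM in control and 54.7 ± 3.11 FPKM in optimized libraries, and Stat6 made up 88.2% ± 0.083 and 86.9% ± 1.05 of it.

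The share of each inhibitor depended on the gene length used. In the deposited FPKM, Socs1 made up 79.0% ± 5.64 of the 3 inhibitors in control and 48.3% ± 3.97 in optimized libraries, Socs2 10.4% ± 1.70 and 37.8% ± 4.51, and Cish 10.6% ± 4.26 and 13.9% ± 1.52. The FPKM of Socs2 correspond to a gene length of about 13.5 kb, against 2.54 kb for its canonical transcript, and those of Socs1 to about 1.38 kb against 3.26 kb. With CPM per kb of canonical transcript, a scale chosen after these lengths had been seen, Socs2 made up 54.3% ± 3.12 in control and 84.2% ± 2.56 in optimized libraries and was the most expressed inhibitor in both. Socs1 then held 33.3% ± 5.76 and 8.69% ± 1.54. On both scales the share of Socs2 was higher and that of Socs1 lower in every optimized library than in any control library.

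**Figure D3:**
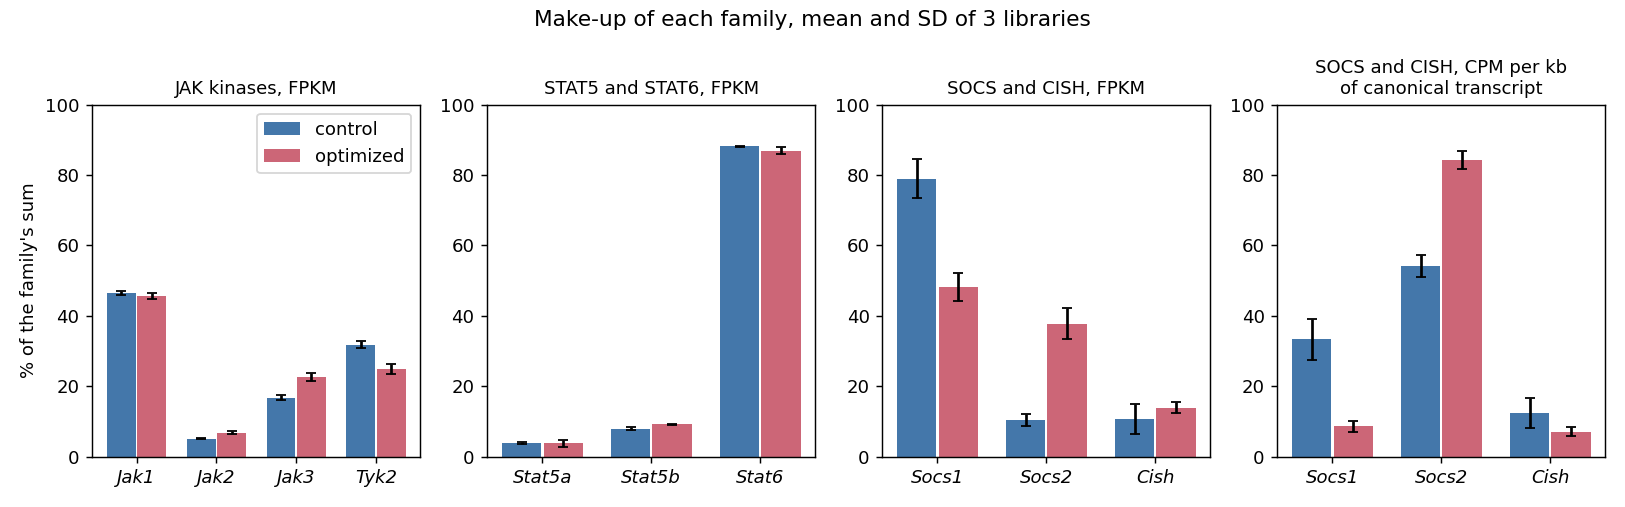
Share of each gene in the sum of its family in percent, mean and SD of 3 libraries per condition, for the kinases, the STAT genes and the inhibitors in FPKM, and for the inhibitors again in CPM per kb of canonical transcript. The share of Tyk2 is lower and those of Jak3 and Jak2 are higher in optimized libraries, Stat6 holds 88.2% and 86.9% of the STAT sum, and the share of Socs2 is higher and that of Socs1 lower on either length scale.

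The genes around the 10 were taken from lists of pathway members. Of 116 such genes, 82 were tested, and 14 were higher, 26 lower and 42 not past the threshold, with a median log2 fold change of -0.06. Over all genes tested, 14.7% were higher and 15.2% lower, and the counts of each list below stand beside these shares. The lists were chosen with earlier results of these data known. Among receptors that use STAT5 or STAT6, 1 of 13 tested genes was higher and 2 were lower, with a median of 0.06. Il4ra, the IL-4 receptor chain that docks STAT6, rose from 75.0 ± 0.54 to 144 ± 6.92 CPM (SD, n = 3 each), or 0.95 on the log2 scale (edgeR, adjusted p = 1.31e-05), in the same libraries in which Stat6 fell. Il2rg, the common gamma chain to which Jak3 binds, fell from 261 ± 15.4 to 113 ± 12.6 CPM (SD, n = 3 each), or -1.20 on the log2 scale (edgeR, adjusted p = 1.5e-05). Il15ra, the private chain of the IL-15 receptor, fell by 0.81 on the log2 scale, and its ligand Il15 fell by 0.88. The other receptors of this list with a mean of at least 10 FPKM did not pass the threshold. They were Csf2ra (0.08), Csf2rb (-0.19) and Csf2rb2 (0.05), the chains for GM-CSF and related cytokines, Il13ra1 (0.10), Il21r (-0.01) and Crlf2 (0.43), all as log2 fold changes. With library size alone Csf2ra, Csf2rb2 and Il13ra1 turned to -0.06, -0.08 and -0.03, and Csf2rb passed the threshold at -0.32 (edgeR, adjusted p = 0.0232). Crlf2, the TSLP receptor, had 56.0 CPM in optimized library 1 against 119 and 89.3 CPM in the other 2, and without that library its log2 fold change was 0.67 (edgeR, adjusted p = 0.000142).

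Among receptors that signal mainly to other STATs, 2 of 15 tested genes were higher and 7 lower, with a median log2 fold change of -0.20. Ifnar2, a chain of the type I interferon receptor, rose from 112 ± 5.59 to 189 ± 26.3 CPM (SD, n = 3 each), or 0.75 on the log2 scale (edgeR, adjusted p = 0.00058). Ifnar1, the other chain, did not pass the threshold at -0.07 (edgeR, adjusted p = 0.58). Ifngr1, a chain of the interferon gamma receptor, fell from 297 ± 8.66 to 124 ± 11.9 CPM (SD, n = 3 each). This was -1.26 on the log2 scale (edgeR, adjusted p = 5.82e-06). Il6ra and Il6st, the chains of the IL-6 receptor, were lower, with log2 fold changes of -0.47 and -0.50 (edgeR, adjusted p = 0.00726 and 0.0154). Il12rb1, a partner of Tyk2, had 10, 18 and 19 counts in control and 0, 3 and 6 counts in optimized libraries. Its log2 fold change of -2.14 (edgeR, adjusted p = 0.0401) rested on these few counts and did not pass in 5 of the 6 removals of a library, with adjusted p-values up to 0.128. Only 4 of 22 ligand genes had enough counts, 3 of them higher and 1 lower. Il6 rose from 0.292 ± 0.034 to 1.40 ± 0.16 CPM (SD, n = 3 each), or 2.23 on the log2 scale (edgeR, adjusted p = 0.000698). This too rested on few counts, 6, 7 and 9 in control and 30, 29 and 32 in optimized libraries.

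Among other STAT genes, Stat2, the interferon factor that Tyk2 and Jak1 phosphorylate, fell from 242 ± 7.59 to 129 ± 19.1 CPM (SD, n = 3 each), or -0.91 on the log2 scale (edgeR, adjusted p = 0.000184). Stat3, the factor downstream of IL-6, was higher by 0.31 on the log2 scale (edgeR, adjusted p = 0.0197), but not past the threshold with library size alone, where the change was 0.18, and the adjusted p-value ranged up to 0.108 without single libraries. Stat4 was at 0.613 ± 0.18 and 0.473 ± 0.12 CPM (SD, n = 3 each) and did not pass.

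Among the 5 remaining SOCS genes, Socs6 rose, with 52.7, 58.8 and 54.9 CPM in control and 100.2, 99.9 and 99.1 CPM in optimized libraries. On the log2 scale this was 0.85 ± 0.08 (SE, edgeR, adjusted p = 3.22e-05). Socs3, the inhibitor of gp130 signalling, had 14.6, 16.8 and 13.7 CPM in control and 15.3, 24.4 and 24.3 CPM in optimized libraries, with optimized library 1 inside the control range. Its log2 fold change was 0.51 with an adjusted p-value of 0.0562 (edgeR), and 0.70 with 0.000151 without optimized library 1. Socs3 also passed the threshold with DESeq2 (adjusted p = 0.0445), with edgeR without the filter on low counts (adjusted p = 0.0243) and with the replicate number as a block in edgeR (adjusted p = 0.0247). Socs4 (-0.03), Socs5 (0.06) and Socs7 (-0.05) had log2 fold changes near 0, and that of Socs5 turned to -0.07 with library size alone. The 4 tested subunits of the ligase that the SOCS box recruits, Elob, Eloc, Cul5 and Rnf7, did not pass the threshold either, with a median of 0.09.

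Of 16 phosphatases, PIAS proteins and adaptors, 3 were higher and 4 lower, with a median log2 fold change of -0.13. Sh2b2, an adaptor that binds Jak2 and the insulin receptor, rose from 6.47 ± 1.15 to 46.3 ± 4.64 CPM (SD, n = 3 each), or 2.84 on the log2 scale (edgeR, adjusted p = 5.6e-07). Cblb, a ubiquitin ligase, fell from 26.1 ± 1.64 to 16.3 ± 2.69 CPM (SD, n = 3 each), or -0.67 on the log2 scale (edgeR, adjusted p = 0.0028).

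Genes commonly listed as STAT5 targets, apart from Socs2 and Cish, were mostly lower. Those 2 targets are described above and are left out of this list. Their log2 fold changes were 1.87 and 0.48, of which that of Socs2 passed the threshold. Of 10 tested, 2 were higher and 7 lower, with a median log2 fold change of -0.49, against 14.7% higher and 15.2% lower over all genes tested. Osm, 1 of the 2 higher genes, is also counted among the 3 higher ligands. The list was chosen with earlier results of these data known. Pim1, a survival kinase, fell from 40.5 ± 1.42 to 17.6 ± 0.23 CPM (SD, n = 3 each), or -1.20 on the log2 scale (edgeR, adjusted p = 5.39e-06), while its relative Pim2 rose from 2.61 ± 0.41 to 4.70 ± 0.61 CPM, or 0.85 on the log2 scale (edgeR, adjusted p = 0.00969). Mcl1, which blocks apoptosis, and Ccnd1, a cell cycle cyclin, fell by 1.11 and 1.05 on the log2 scale. Of 12 tested STAT6 targets, 2 were higher and 3 lower, with a median of -0.25. Arg1, arginase of alternatively activated macrophages, had 3, 3 and 2 counts in control and 26, 14 and 14 counts in optimized libraries, or 2.89 on the log2 scale (fold 95% interval 3.28 to 16.8, edgeR, adjusted p = 0.00215). Clec10a, a lectin of the same state, went the other way with 24, 35 and 16 counts in control and 4, 0 and 1 counts in optimized libraries, or -3.63 on the log2 scale (edgeR, adjusted p = 0.00394). Mrc1, the mannose receptor, fell from 330 ± 21.8 to 62.7 ± 5.37 CPM, and Flt1, a receptor for vascular endothelial growth factor that is also an endothelial marker, rose from 83.0 ± 8.55 to 298 ± 42.2 CPM (SD, n = 3 each). Many of these targets answer to other factors as well, so the lists do not read out a single STAT.

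**Figure D4:**
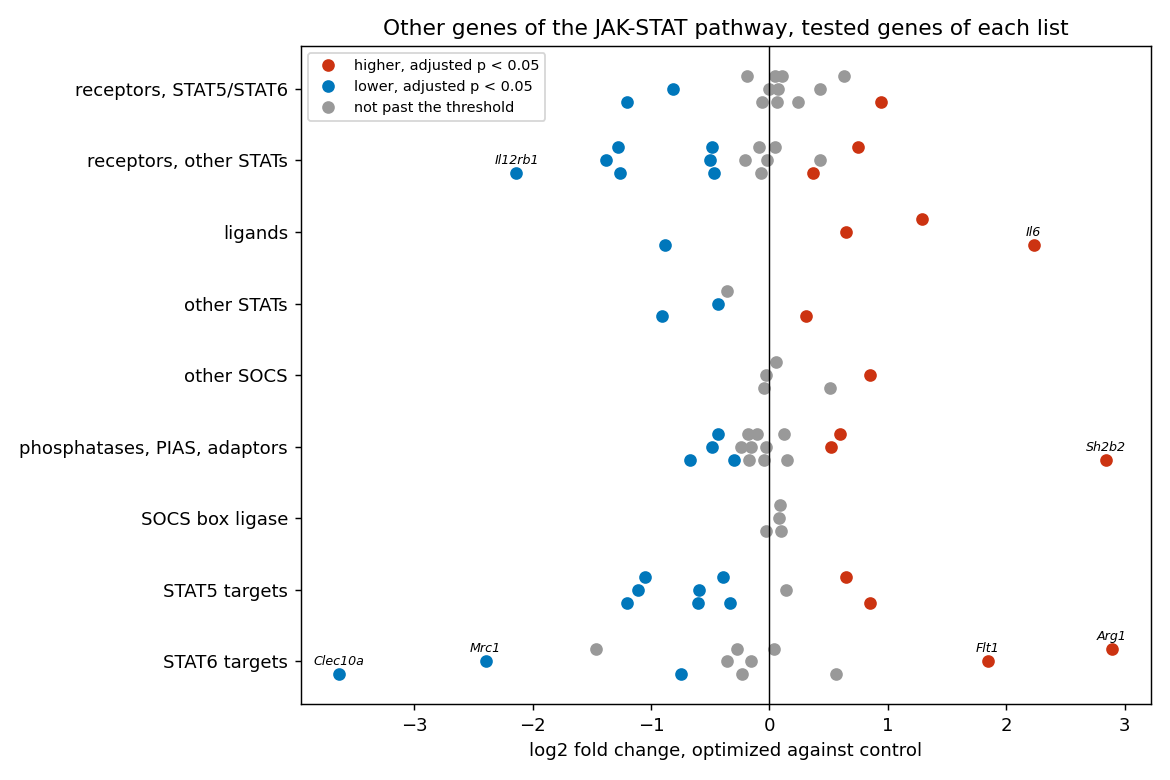
Log2 fold change of each tested gene of the pathway lists, optimized against control, with 1 row per list and genes with a change of at least 1.8 in either direction that passed the threshold named. Red points are higher, blue points lower and grey points not past the threshold by edgeR. The row of STAT5 targets, which leaves out Socs2 and Cish, lies mostly to the left, with 7 of 10 genes lower against 15.2% of all tested genes.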

How the data were processed

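Paired-end reads were mapped by the authors to mm39 with HISAT2 and counted per gene with featureCounts in Galaxy. Versions, annotation and strand setting are not given in the sources used here. Raw counts and, in a second table, FPKM were deposited for 41079 genes in 6 libraries. Each deposited FPKM value is its count over a gene factor and a library factor. No column of another sample was present. Samples were grouped by their labels. The study defines its sample numbers as independent biological replicates, while the labels do not say which animals or cultures each library came from. The p-values set a difference against the spread between these libraries. How far they extend to other animals or cultures cannot be told.

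Counts were filtered with filterByExpr, scaled with TMM factors and compared with the quasi-likelihood test of edgeR 4.0.16 in R 4.3.3, with Benjamini-Hochberg adjustment over 14618 genes and a threshold of 0.05. The standard error is the size of the log2 fold change divided by the square root of F. CPM are TMM-scaled. Alternatives were DESeq2 1.42.0, scaling by relative log expression or by library size alone, no filter, a minimum of 10 counts per library, a replicate block, removal of single libraries, and limma 3.58.1 on log2(FPKM + 1), on log2(FPKM + 0.1) and on the genes that averaged 1 FPKM or more. Leaving out both libraries numbered 1 was added after the data had been seen. With FPKM, differences are of log2(value + pseudocount), which understates those of low genes. The edgeR fit, with and without the replicate block, the DESeq2 fit and a limma fit on log2(CPM + 0.1) were run on simulated counts first. The other steps were not. The stricter cut-off is that of the study's volcano plot.

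The 10 genes and all lists were chosen with earlier results of these data known. Named pathway genes are the called genes with the largest and smallest change of each list, all called genes where a list had at most 3, all other STAT and SOCS genes, and receptors using STAT5 or STAT6 that averaged 10 FPKM or more. A gene under this rule is not reported here. Mcl1, Ccnd1, Mrc1, Flt1, Elob, Eloc, Cul5, Rnf7, Ifnar1, Ifngr1, Il6ra, Il6st and Osm and the genes under other observations were picked outside this rule with their values in view. Positions and transcript lengths come from GENCODE M39 (GRCm39, the same build as mm39), and sequences were read from that genome.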

Additional observations from a re-analysis of the deposited data

How the results depend on the processing

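Each of the 10 genes kept its direction under every alternative in which it was tested. Socs2, Tyk2 and Stat6 stayed past the threshold wherever they were tested, and Jak2, Jak3, Socs1 and Cish stayed short of it. The calls of Jak1, Stat5a and Stat5b changed as given with their values, and leaving out both libraries numbered 1 called Stat5a (-0.56, adjusted p-value 0.0115, edgeR). Over the single removals, 2 to 4 of the 10 genes were lower and 1 was higher. With a mean FPKM of at least 1, Socs1, Socs2 and Cish were not tested, 0 of the 10 genes were higher and 9 pathway genes were higher against 14. The stricter cut-off was passed by 0 of the 10 genes with each of the 3 limma alternatives. Of all genes, 2142 were higher and 2218 lower, 49.1% higher among those called. With library size alone these were 1513 and 3168 (32.3%), with limma on log2(FPKM + 1) 1307 and 2638 (33.1%), on log2(FPKM + 0.1) 1312 and 2664 (33%), and with a mean FPKM of at least 1 1176 and 2962 (28.4%). Single removals gave 1603 to 2591 higher and 1646 to 2643 lower.

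Changes of sign occurred for genes near 0 that were not called. On the log2 scale Socs5 was -0.069, Csf2ra -0.058, Csf2rb2 -0.081 and Il13ra1 -0.026 with library size alone, then -0.053, -0.062, -0.093 and -0.034 by limma on log2(FPKM + 1), with or without the FPKM minimum, and -0.075, -0.065, -0.094 and -0.036 on log2(FPKM + 0.1). Over single removals Socs4 ranged from -0.16 to 0.087, Socs7 from -0.16 to 0.0035, Csf2ra from -0.0024 to 0.14 and Il21r from -0.049 to 0.022, and Il21r was 0.0042 without both libraries numbered 1.

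Same-numbered libraries deviated together with correlations of 0.579, -0.0815 and 0.372 over 9371 genes, so the numbers were not taken as pairs, and not every library correlated best with its own number. With the number as a block, 1 of the 10 genes was higher and 3 were lower, and over all genes 2401 were higher and 2523 lower. Among the 10 genes and the genes named by the rule, the block changed the call of Socs3 alone (0.49, adjusted p-value 0.0247, edgeR). Depth limits Cish, Socs1 and Socs2, with 12 to 177 counts per library.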

Other observations

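The pair of TTCNNNGAA matches with 2 bases between them, shown for Socs2 and Cish, was also present near Dtd2, E2f7, Prmt1, Tspan31, Gabrb1, Ndufb11b and Rasl10b, 9 genes in all. Of the 6 that could be tested, Socs2 was higher at a log2 fold change of 1.87 and E2f7, a repressor of cell cycle genes, was lower at -1.26 ± 0.30 (SE, edgeR, adjusted p = 0.0104). Cish (0.48), Dtd2 (-0.16), Prmt1 (-0.19) and Tspan31 (0.13) did not pass the threshold, and Gabrb1, Ndufb11b and Rasl10b had too few counts. Over all genes tested, 29.8% passed the threshold in either direction. The spacing was taken from the matches of Socs2, so Socs2 belonged to this set from the outset.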
